A study of Xenopus tropicalis with 8 samples.

Results

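The genes described here belong to families that unwind, splice and package RNA: DEAD-box and DEAH-box helicases (ddx and dhx), spliceosome proteins (sf3, u2af, snrp, lsm and prpf), heterogeneous nuclear ribonucleoproteins (hnrnp), RNA-binding motif proteins (rbm, rbms included) and PIWI proteins (piwil). They were chosen by gene symbol. Which probe stood for a gene, and whether it was tested, depended on its measured intensity. Of 182 genes with such a symbol in the RefSeq gene table of Xenopus tropicalis, 55 were read from a probe of the array and 46 of these were tested. The tested genes comprised 7 ddx, 8 dhx, 4 sf3, 1 u2af, 3 snrp or lsm, 5 prpf, 5 hnrnp, 12 rbm and 1 piwil gene. No gene named tdrd (Tudor domain) or srsf (SR protein) was read from a named probe, and these families were not analysed here. Of the genes named piwil or tdrd, piwil1 is therefore the sole one measured, and the set is mainly one of helicase, spliceosome and RNA-binding genes.

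The tissue was testis of juvenile male Xenopus (Silurana) tropicalis, a diploid frog, kept in L-15 culture medium for 6 h at 26 °C. One group received finasteride at 5 µM, which blocks the enzyme 5-alpha-reductase, and the control group was kept without it (0 µM). Total RNA was labelled with Cy3 and read on 1-colour Agilent arrays, 4 per group. The design text counts 8 samples per arm, of which 4 arrays per arm were analysed here. Strain, exact age, and whether an array holds 1 animal or a pool are not given in the sources used here, so the p-values reflect only how far these arrays differ, a spread that may be technical.

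Before a messenger RNA leaves the nucleus its introns are removed by the spliceosome, a machine of small nuclear RNAs and proteins that is rebuilt on every intron. U2AF and the SF3 complexes of the U2 particle mark the 3′ end of the intron, and the U4/U6.U5 particle supplies the catalytic core around PRPF8. Helicases of the DEAD and DEAH classes drive many of the rearrangements. In male germ cells helicases also act in a second setting. There PIWI proteins carry small guide RNAs that silence transposons and are stored with helicases in granules beside the nucleus.

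Each value below called a level is a log2 intensity minus the 75th percentile of its array, so that 0 is that percentile. Levels compare arrays for 1 gene and say nothing of which gene is more abundant. A difference is the level with finasteride minus the level in controls, and its 95% interval comes from the limma fit over all 25652 probes tested. The 75th percentile of intensity lay between 719 and 1798 on the 8 arrays, with 0 saturated probes. The share of probes detected well above background was 73.3% to 77.2% on control arrays and 70.5% to 86.9% on finasteride arrays, with the extremes on finasteride 4 and finasteride 3. Markers of the tissue were read for few genes: the meiotic axis gene hormad1 stood between 3.52 and 4.07 in controls and the steroidogenic gene star between -1.15 and 0.05, both well above background on all arrays. For the meiotic gene sycp3 0 arrays gave a signal well above background. Of 3 oocyte genes named on a probe, gdf9 was well above background on no array, bmp15 on 3 control and 4 finasteride arrays and h1-8 on 2 control and 3 finasteride arrays. Markers of other organs were detected too: 3 of 4 liver and 3 of 4 kidney genes named on a probe were tested. An unadjusted limma p under 0.05 was found for 1 of 3 Sertoli, 1 of 2 erythrocyte, 1 of 3 liver and 1 of 3 kidney genes. The share of all probes was 4.00%. For spermatogonia, meiosis, spermatid, Leydig, endothelium, leukocyte and oocyte markers it was found for 0, and 0 markers passed after adjustment. Values were higher with finasteride for 3 of 3 Sertoli, 1 of 2 erythrocyte, 1 of 3 liver and 2 of 3 kidney genes. They were higher for 0 of 2 spermatogonia, 1 of 2 meiosis, 2 of 2 spermatid and 1 of 2 Leydig genes. For endothelium it was 0 of 2, for leukocyte 1 of 1 and for oocyte 2 of 2. In tissue RNA, a change in the number of cells of a type and a change in RNA per cell cannot be told apart.

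None of the 46 genes passed the test for a difference with finasteride. After Benjamini-Hochberg adjustment over all probes 0 members passed in either direction, as did 0% of all probes. At an unadjusted limma p under 0.05 there were also 0 of 46, against 4.00% of all probes (2.28% higher and 1.72% lower), and the lowest p among the members was 0.132. The groups were separated without overlap for 0 of 46 genes, against 2.08% of all probes (1.02% higher and 1.06% lower). Values were higher with finasteride for 23 genes and lower for 23, where 51.2% of all probes were higher, and the median difference was 0.022 beside 0.0063 over all probes. This split holds for the main processing only. With another background correction, normexp, many of the lower genes turned to higher values.

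The intervals show how large a change these arrays leave room for under the main processing. For 40 of the 46 genes the whole 95% interval lay within a 2-fold change in either direction, as it did for 83.7% of all probes. The 6 exceptions were ddx21, dhx38, sf3b3, lsm7, hnrnpul2 and rbms3. Point differences were under 1.5-fold for 45 of 46 genes, against 94.3% of all probes, and the gene beyond it was rbms3. The narrowest interval, of u2af1, reached 0.33 to either side of its difference and the widest, of rbms3, 1.18. Leaving out 1 array in turn changed the sign of the difference for 20 of 46 genes, and for 45 of 46 it either did so or moved its size by over 1.5 times. The matching shares of all probes are not given here, so these counts cannot be read as particular to the members.

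**Figure D1:**
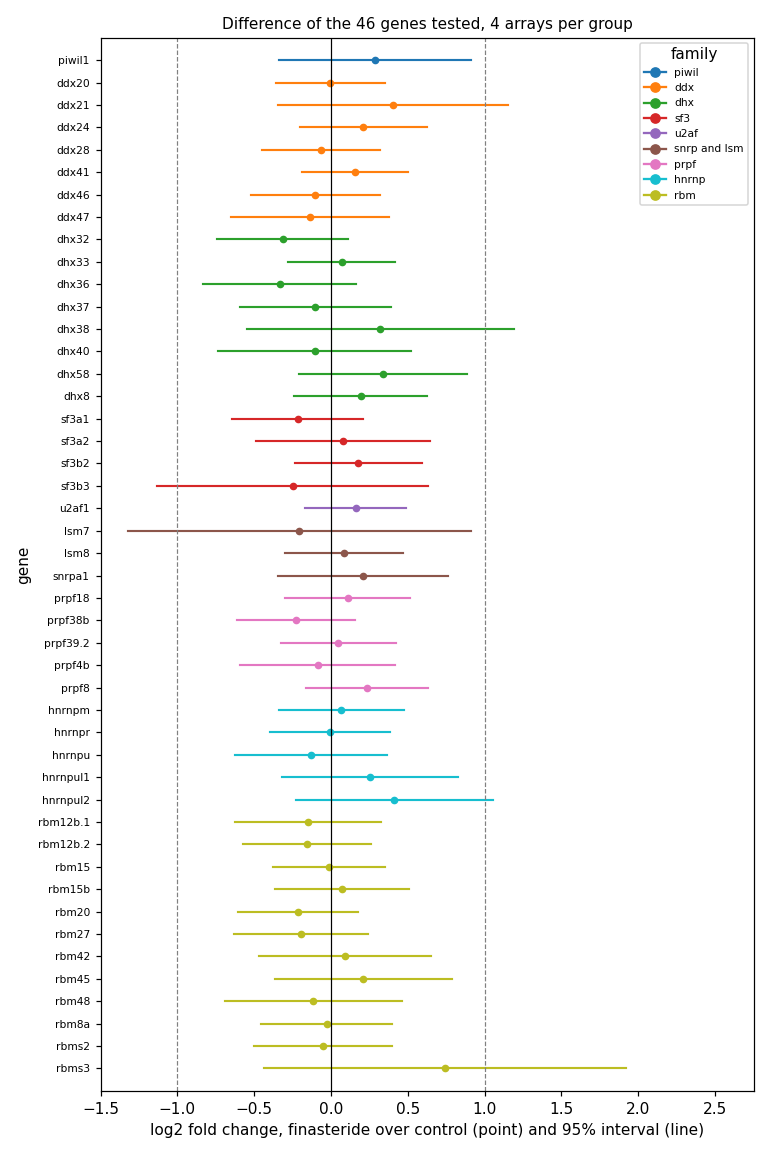
Difference of each of the 46 genes on the log2 scale (x axis, point) with its 95% limma interval (line), coloured by family, 4 arrays per group; the dashed lines mark a 2-fold change. Every interval crosses 0, and 6 of them also cross a dashed line.

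PIWI proteins were represented by piwil1, which in mouse and zebrafish binds piRNAs in germ cells. Its level in controls 1 to 4 was -0.18, 0.16, 0.77 and -0.11, and in finasteride 1 to 4 it was -0.06, 0.91, 0.72 and 0.20. The groups overlapped over most of their range, with control 3 and finasteride 2 and 3 high. The difference was 0.29 (-0.34 to 0.91, limma adjusted p = 1.00), from 0.13 without finasteride 2 to 0.49 without control 3. It was 0.47 within slide 1 and 0.10 within slide 2.

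A list of 30 genes was drawn up around PIWI proteins and germ plasm, and not all of them are known to act there. Of these, 7 were named on a probe and all 7 were tested. Values were higher for 4 and lower for 3, with a median difference of 0.11, and 0 passed. The germ-cell gene tex15, needed in mouse for meiosis and for piRNA-directed silencing, had the lowest unadjusted p of these. Its level was 0.37, 0.18, 0.67 and 0.15 in controls 1 to 4 and -1.95, 0.32, -0.11 and 0.35 in finasteride 1 to 4. Finasteride 1 alone lay far below all other arrays, and the difference was -0.69 (-1.71 to 0.33, limma adjusted p = 1.00), or -0.15 without that array. The zinc finger gene zglp1 had a difference of 0.19 (-0.15 to 0.53), stk31, a gene of male germ cells, -0.23 (-0.75 to 0.29) and the helicase gene mov10 0.20 (-0.26 to 0.65).

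Recognition of the intron's 3′ end is the task of U2AF and SF3. The small U2AF subunit u2af1, which contacts the AG at the splice site, had a level of -1.47, -1.26, -1.39 and -1.42 in controls and -1.43, -1.15, -1.21 and -1.12 with finasteride. Finasteride 1 fell inside the control range and the other finasteride arrays lay just above it. Its difference was 0.16 (-0.17 to 0.49), and its range over all 8 arrays, 0.35, was the narrowest of the 46 genes.

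The SF3 genes encode the subunits that hold the U2 particle on the branch site. For sf3b2 the level was 3.06, 3.64, 3.68 and 3.38 in controls and 3.80, 3.58, 3.67 and 3.44 with finasteride. Control 1 was lowest, the rest overlapped, and the difference was 0.18 (-0.23 to 0.59), or 0.052 without control 1. For sf3a1 it was -4.57, -4.93, -4.88 and -4.43 in controls and -5.09, -5.12, -4.58 and -4.89 with finasteride. The groups overlapped in part: finasteride 1 and 2 lay below every control, and controls 1 and 4 above every finasteride array. The difference was -0.22 (-0.64 to 0.21). Within slide 1 it was 0.016 and within slide 2 -0.45.

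The subunit gene sf3b3 was among the 4 genes with the widest range of those well above background on all arrays. Its level was -4.93, -3.89, -5.43 and -3.77 in controls and -5.32, -4.14, -4.92 and -4.65 with finasteride. Controls 2 and 4 and finasteride 2 were the high arrays, so the spread within controls (SD 0.81, n = 4) exceeded the difference of -0.25 (-1.13 to 0.63). It ran from -0.56 without control 3 to -0.0030 without control 4. For sf3a2 the difference was 0.077 (-0.49 to 0.64), with the highest level, -3.44, on finasteride 3 and the lowest, -4.64, on finasteride 4.

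Among proteins bound to the small nuclear RNAs, snrpa1 encodes the U2 particle's A′ protein. Its level was 2.25, 1.91, 2.37 and 2.38 in controls and 2.78, 1.98, 2.06 and 2.93 with finasteride. Finasteride 1 and 4 stood above every control and finasteride 2 and 3 among them, which gave a difference of 0.21 (-0.34 to 0.76). It was 0.047 without finasteride 4 and 0.36 without finasteride 2. The LSm ring proteins bind U6 RNA, and for lsm8 of that ring the level was 0.28, 0.27, 0.48 and 0.55 in controls and 0.54, 0.46, 0.18 and 0.76 with finasteride. Finasteride 3 was lowest and finasteride 4 highest of all arrays, and the difference was 0.087 (-0.30 to 0.47). It was -0.0045 without finasteride 4. The gene lsm7, whose protein also serves in the cytoplasmic ring of messenger RNA decay, ranged from -5.35 to -3.64 in controls and from -5.70 to -3.61 with finasteride. Its probe was well above background on 4 control and 3 finasteride arrays, and the difference was -0.21 (-1.32 to 0.91), or 0.85 with normexp background.

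The PRPF genes encode parts of the catalytic core and factors that join it. For prpf8, the scaffold protein of that core, the level was 0.63, 0.71, 0.87 and 0.67 in controls and 0.86, 0.93, 1.35 and 0.68 with finasteride. Finasteride 3 stood highest and finasteride 4 lay within the control range. The difference was 0.23 (-0.16 to 0.63), and 0.10 without finasteride 3. For prpf38b it was -0.18, 0.011, -0.13 and -0.15 in controls and -0.72, -0.18, -0.30 and -0.16 with finasteride. Finasteride 1 was far below the rest, and the difference of -0.23 (-0.61 to 0.15) became -0.10 without it. The step-two splicing factor gene prpf18, the U1-associated gene prpf39.2 and the kinase gene prpf4b had differences of 0.11 (-0.30 to 0.51), 0.047 (-0.33 to 0.42) and -0.086 (-0.59 to 0.42). In prpf4b, too, finasteride 1 was the lowest array, with the other 7 arrays between -0.38 and -0.028.

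Several helicases of the set act inside the spliceosome. The gene ddx46 encodes the homolog of yeast Prp5, which readies the U2 particle for the branch site, dhx38 that of Prp16, which acts before the second catalytic step, and dhx8 that of Prp22, which releases the spliced messenger. Their differences were -0.10 (-0.52 to 0.32), 0.32 (-0.55 to 1.19) and 0.19 (-0.24 to 0.63). For dhx38 it was 0.020 without control 3, and for ddx46 it was 0.085 with quantile normalization and 0.10 from the values of the authors' deposited table. The wide interval of dhx38 went with a dim probe, well above background on 2 control and 3 finasteride arrays, at -6.27 on control 3 and -4.33 on finasteride 3. That probe was tested only through the finasteride group, where its values were higher on average, so its difference cannot be told apart from the filter. For ddx46 the level ran from 7.29 to 7.52 in controls and from 7.11 to 7.82 with finasteride, finasteride 1 being highest, so the control range lay inside the finasteride range. For ddx41, which in human cells is found with the late spliceosome, the difference was 0.16 (-0.19 to 0.50), and for ddx20, a helicase of the SMN complex that assembles small nuclear ribonucleoproteins, it was -0.0037 (-0.36 to 0.35).

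The other DEAD-box genes serve mainly ribosome assembly. For ddx24 the level was 2.26, 2.24, 2.39 and 2.38 in controls and 2.82, 2.37, 2.15 and 2.77 with finasteride. As in snrpa1, finasteride 1 and 4 stood above all controls, while finasteride 3 was here below them. The difference was 0.21 (-0.21 to 0.63). The nucleolar helicase gene ddx21 had -5.89, -5.70, -6.21 and -4.77 in controls and -4.96, -5.14, -4.91 and -5.95 with finasteride. This dim probe was well above background on 2 control and 3 finasteride arrays, so it was tested only through the finasteride group. Since its values were higher on average in that group, the difference cannot be told apart from the effect of the filter. Its difference was 0.40 (-0.35 to 1.15), from 0.21 without control 3 to 0.69 without control 4, the only control among the higher values. The ribosome assembly gene ddx47 and the mitochondrial helicase gene ddx28 had differences of -0.14 (-0.65 to 0.38) and -0.066 (-0.45 to 0.32).

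Of the other DEAH-box genes dhx32 had the lowest p of all 46. Its level was -2.16, -1.86, -1.96 and -2.44 in controls and -2.40, -2.29, -2.23 and -2.77 with finasteride. Control 4 lay below 3 of the finasteride arrays, and the difference was -0.31 (-0.74 to 0.11, limma adjusted p = 1.00). For dhx36, which unwinds G-quadruplexes, it was -1.72, -2.01, -2.02 and -1.70 in controls and -1.99, -2.13, -1.86 and -2.81 with finasteride. One array, finasteride 4, carried most of the difference of -0.33 (-0.83 to 0.17), which was -0.13 without it. For dhx40 it was -2.09, -1.67, -1.93 and -2.03 in controls and -2.84, -1.83, -1.41 and -2.07 with finasteride. Both the highest and the lowest array belonged to the finasteride group, and the difference of -0.11 (-0.73 to 0.52) turned to 0.16 without finasteride 1.

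Some names of the set belong to the sensors of viral RNA or to ribosome assembly rather than to splicing. The gene dhx58 encodes LGP2, a relative of the sensor RIG-I, and its difference was 0.34 (-0.21 to 0.88), from 0.20 without control 2 to 0.52 without finasteride 4. The probe for RIG-I itself, ddx58, was well above background on 0 control and 1 finasteride array and was not tested. The gene dhx37 acts in assembly of the small ribosomal subunit and is linked in humans to disorders of testis development. Its probe was well above background on 2 control and 3 finasteride arrays, with a difference of -0.10 (-0.59 to 0.39), or 0.94 with normexp background. For dhx33 the difference was 0.070 (-0.28 to 0.42), with all 8 arrays between -3.37 and -2.95.

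Heterogeneous nuclear ribonucleoproteins coat new transcripts and steer splice-site choice. Here the spread was wider with finasteride than in controls for 5 of 5 genes, against 71.2% of all probes. The share was 80.1% for all probes of level above 0 and 67.0% for those of level 0 or below. It was wider as well for 3 of 3 snrp or lsm and 10 of 12 rbm genes, but for 4 of 8 dhx and 2 of 4 sf3 genes. For hnrnpul1 the level was 2.12, 1.96, 2.30 and 2.29 in controls and 2.96, 2.15, 1.81 and 2.76 with finasteride. Finasteride 1 and 4 were above every control and finasteride 3 below every control. The difference was 0.25 (-0.32 to 0.82), and 0.074 without finasteride 1. For hnrnpul2 the level was -1.61, -1.92, -1.27 and -2.04 in controls and -0.94, -1.85, -0.73 and -1.69 with finasteride. Here finasteride 1 and 3 were the high arrays and the other finasteride arrays fell among the controls, with a difference of 0.41 (-0.23 to 1.05). The difference was 0.068 (-0.34 to 0.47) for hnrnpm, -0.0069 (-0.40 to 0.39) for hnrnpr and -0.13 (-0.62 to 0.36) for hnrnpu.

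Of the 12 rbm genes tested 8 had lower and 4 higher values with finasteride in the main fit, where 51.2% of all probes were higher. For rbm20, which governs titin splicing in mammalian muscle, the level was 2.50, 2.72, 2.31 and 2.67 in controls and 2.20, 2.44, 2.60 and 2.10 with finasteride. Finasteride 1 and 4 lay below every control. The difference was -0.22 (-0.61 to 0.18), and it stood at -0.26 within slide 1 and -0.17 within slide 2. For rbm8a, the Y14 protein of the exon junction complex, it was -2.25, -2.52, -2.76 and -2.10 in controls and -2.44, -2.28, -2.33 and -2.70 with finasteride. Controls spanned all 4 finasteride values, and the difference was -0.029 (-0.45 to 0.40).

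The gene rbms3 encodes a protein that binds single strands of nucleic acid, and it varied most of the 46. Its level was -1.11, -1.82, -0.52 and -1.98 in controls and -0.69, -2.03, -0.41 and 0.67 with finasteride, a range of 2.70 over the 8 arrays. Controls 2 and 4 and finasteride 2 were low, and finasteride 4 was high. The difference was 0.74 (-0.44 to 1.92, limma adjusted p = 1.00). It was 1.60 (0.48 to 2.72, limma adjusted p = 0.923) within slide 1 and -0.11 within slide 2, and leaving out 1 array moved it from 0.31 without finasteride 4 to 1.21 without finasteride 2.

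The other 9 rbm genes had differences from -0.19 for rbm27 to 0.21 for rbm45. They included rbm15 and rbm15b, adaptors of the complex that methylates adenosine in RNA, with -0.010 (-0.37 to 0.35) and 0.071 (-0.36 to 0.51). The 4 finasteride values of rbm15 lay between -0.32 and -0.24, while controls ran from -0.46 to 0.080. The minor-spliceosome gene rbm48 had -0.12 (-0.69 to 0.46), rbm42 0.091 (-0.47 to 0.65) and rbms2 -0.050 (-0.50 to 0.40).

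**Figure D2:**
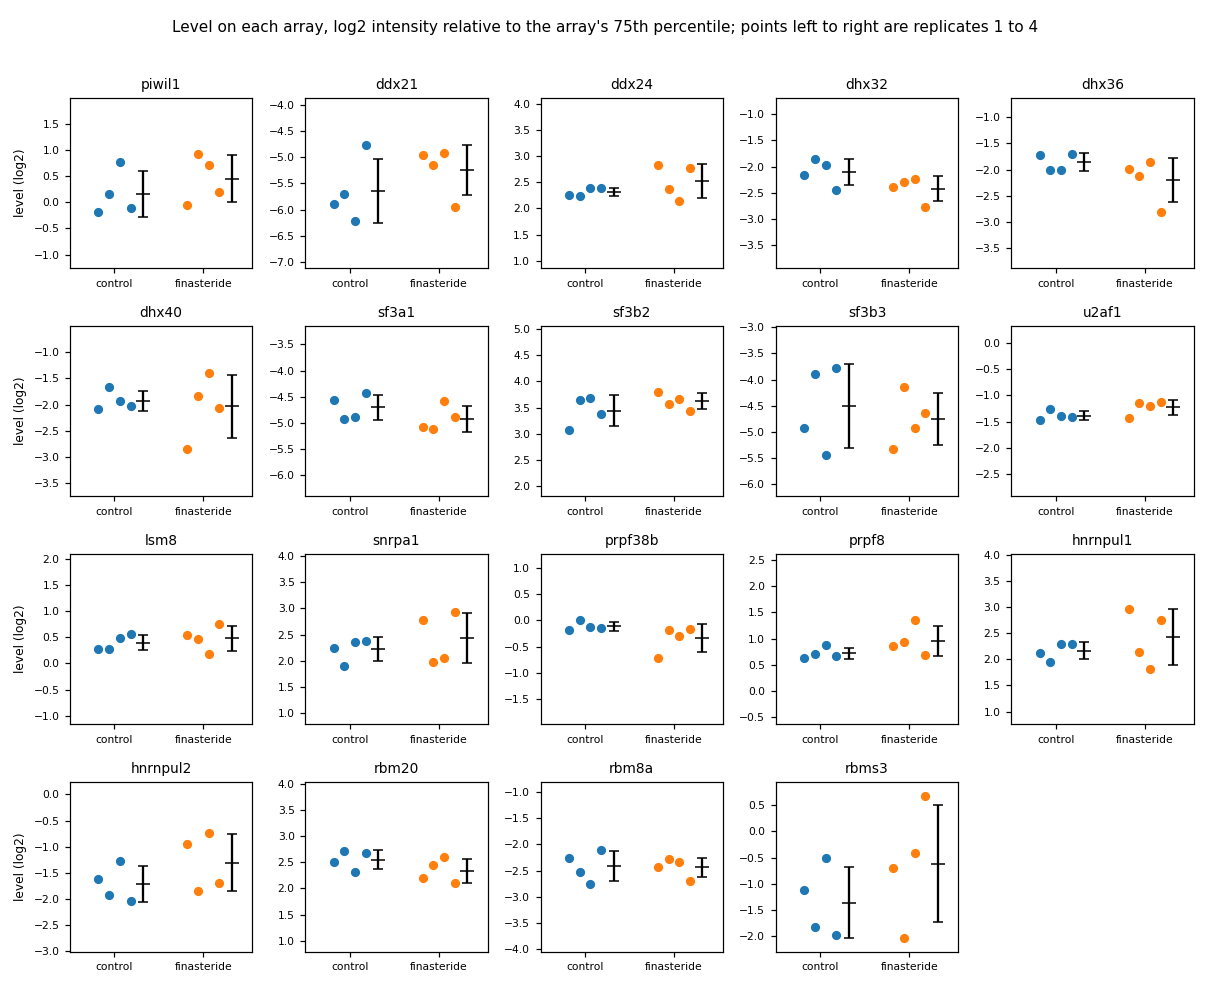
Level on each array (y axis, log2 intensity relative to the array's 75th percentile, the same span in every panel) for the 19 genes named by rule; blue points are controls and orange points finasteride arrays, with the mean and SD (n = 4) in black beside them. The groups overlap in every panel, tightly for u2af1 and over a wide range for rbms3 and sf3b3.

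Copies and repeat probes allowed a look at how far neighbouring or duplicate readings moved together. The genes rbm12b.1, rbm12b.2 and rbm12b.3 stand next to each other in the genome. In rbm12b.1 finasteride 1 was the lowest array at 1.66, with the other 7 arrays between 2.23 and 2.56, while in rbm12b.2 finasteride 3 was lowest, at 0.062, followed by finasteride 1 at 0.29. Their differences were -0.15 (-0.63 to 0.32) and -0.16 (-0.58 to 0.26). The gene rbm45 was read by 2 probes on different transcripts, and both placed finasteride 1 highest, at 0.031 and 0.019, and finasteride 2 lowest, at -1.04 and -0.98. Controls differed more between the probes: control 1 stood at -0.26 on one and -0.72 on the other. The difference was 0.21 (-0.36 to 0.79) on the probe used and 0.26 (-0.23 to 0.75) on the other. Both rbm45 probes, and the probe of rbm12b.1, were named xhyb. Whether they read only their own gene was not tested, so the 2 rbm45 readings cannot be taken as independent.

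The spread between arrays of a group was set beside that of all probes. The residual SD within groups had a median of 0.26 over the 46 genes and 0.32 over all probes, and 27 of 46 lay below the latter. Spread depends on signal, and among all probes of the same level, in steps of 1 log2 unit, 28 of 46 genes lay below the median. Over the 8 arrays 17 of 46 genes spanned a 2-fold range or more, against 44.9% of all probes. By family the lowest median SD was that of the prpf genes, 0.21, apart from the single u2af1 at 0.12.

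**Figure D3:**
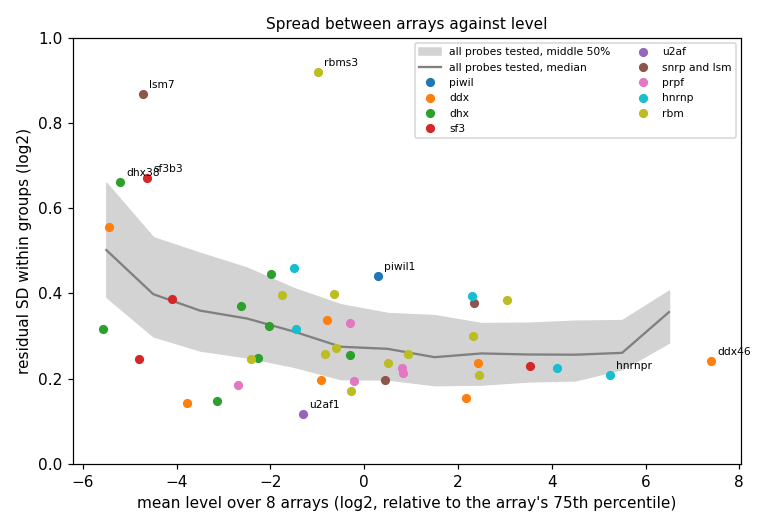
Residual SD within groups (y axis, log2) against mean level over 8 arrays (x axis, log2 relative to the array's 75th percentile) for the 46 genes, coloured by family; the grey line and band give the median and middle 50% of all 25652 probes tested in steps of 1 unit of level. Genes rbms3, at 0.92, and lsm7, at 0.87, stand above the band and u2af1, at 0.12, below it.

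Most members spread more widely on finasteride arrays than on control arrays. The SD over 4 arrays was larger with finasteride for 35 of 46 genes, against 71.2% of all probes, so the members' share is close to that of the array as a whole. The median SD was 0.22 in controls and 0.32 with finasteride for the members, and 0.23 and 0.35 for all probes. Among the 17 members with a mean level above 0 it was larger for 16, against 80.1% of all probes of such level.

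**Figure D4:**
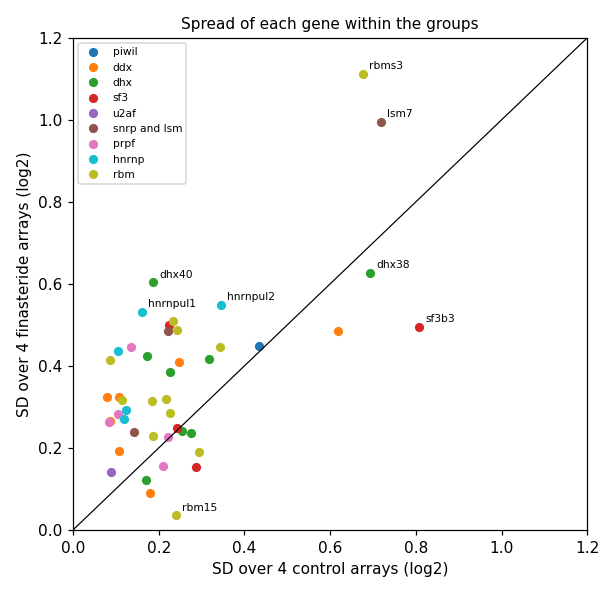
SD over the 4 finasteride arrays (y axis, log2) against SD over the 4 control arrays (x axis, log2) for each of the 46 genes, coloured by family, with the line of equal spread. Of the 46 points 35 lie above the line, rbms3 and lsm7 farthest out, while sf3b3 and rbm15 lie below it.

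The arrays differed in which genes they carried high or low. Finasteride 3 held the highest value for 13 of 46 genes, finasteride 4 for 11, finasteride 1 for 8 and control 4 for 7. For all probes the shares were 21.6%, 13.2%, 21.7% and 18.4% in the same order. Highest and lowest together, finasteride 3 held an extreme of 21 of 46 genes, finasteride 1 of 19 and finasteride 4 of 16, against 37.5%, 41.8% and 31.5% of all probes. In all, 35 of 46 genes peaked on a finasteride array, against 64.6% of all probes, and 28 had their lowest value on one, against 64.0%. Deviations on finasteride 1 went both ways: they were most upward in rbm42, rbm45, hnrnpul1 and hnrnpul2 and most downward in lsm7, dhx40, prpf4b, sf3b3, rbm12b.1 and hnrnpu (genes picked out here after their values were seen). The median deviation of the 46 genes from their own means ran from -0.077 on finasteride 4 to 0.12 on finasteride 3, and for all probes it was -0.059 and 0.056 on these arrays, which also had the lowest and highest shares of probes well above background. The part of that share in the deviations was not tested.

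**Figure D5:**
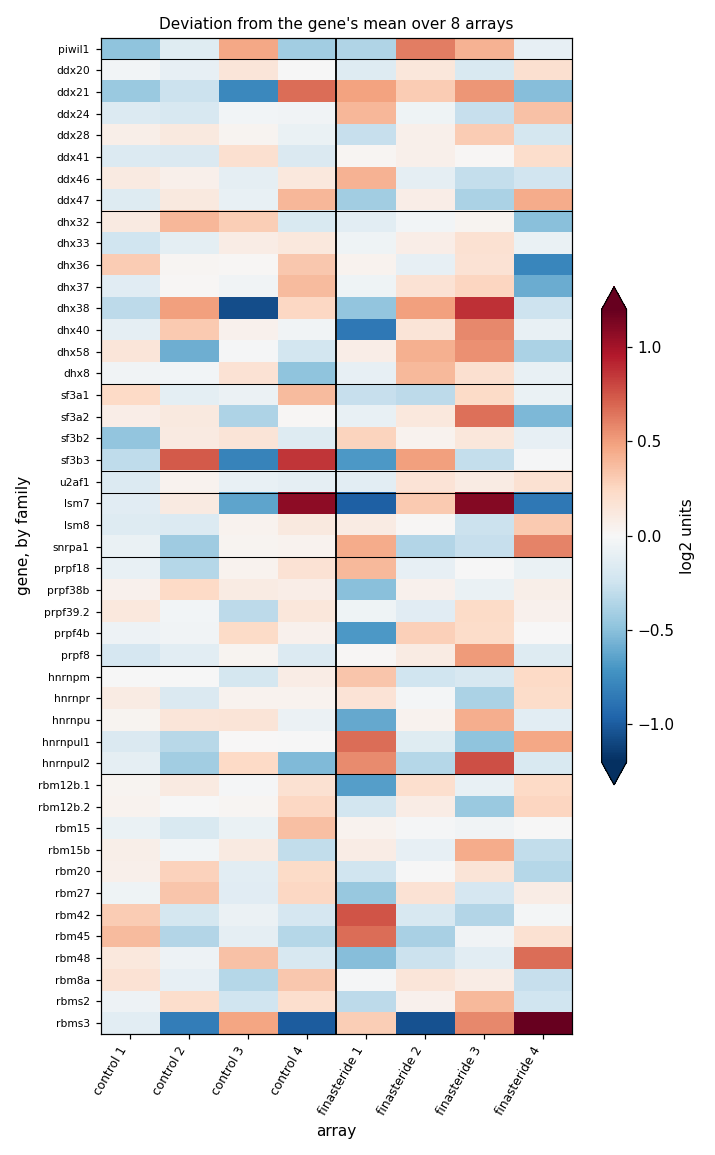
Deviation of each gene (rows, by family) on each array (columns) from its own mean over the 8 arrays, in log2 units, with red for higher and blue for lower. For most genes the control cells are paler than the finasteride cells, and finasteride 1 holds both strong blue and strong red cells.

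Slides divided the arrays into 2 sets of 4, each with 2 arrays per group. Between slides 0 of 46 genes passed in limma with group as a covariate, as did 0% of all probes, and 0 had an unadjusted p under 0.05, against 1.91% of all probes. Within slide 1 the median difference of the members was 0.080 and within slide 2 it was -0.0085, beside 0.021 and -6.4e-05 for all probes. The sign was the same on both slides for 26 of 46 genes, against 51.2% of all probes. At an unadjusted p under 0.05, 1 of 46 genes (rbms3) was found within slide 1, against 4.24% of all probes, and 0 within slide 2, against 1.21%. Controls held positions 1 and 3 of each slide and finasteride arrays positions 2 and 4, so treatment and position on the slide cannot be told apart.

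Under a few other settings 1 of 46 genes had an unadjusted limma p under 0.05, none with an adjusted p below 0.671. These were hnrnpul2 with the replicate number as a block (0.41, 0.013 to 0.81, against 5.14% of all probes) and piwil1 with array weights (0.60, 0.021 to 1.18, against 7.17%). With 1 array left out they were ddx21 without control 4 (3.53%), rbms3 without finasteride 2 (4.97%) and dhx58 without finasteride 4 (4.98%). Of these, ddx21 was tested only through the finasteride group, where its values were higher on average.

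Taken gene by gene, partners of these proteins and related genes outside the named families behaved likewise. Over 5 lists 42 such genes were tested, 24 with higher and 18 with lower values and a median difference of 0.013. At an unadjusted limma p under 0.05 there were 0 of them, against 4.00% of all probes. Of 51 spliceosome partners 9 were tested, 6 higher and 3 lower with a median of 0.0060, among them the cyclophilin gene ppie at 0.20 (-0.17 to 0.57), the THO complex gene thoc1 at 0.11 (-0.38 to 0.61), the tri-snRNP gene usp39 at 0.095 (-0.33 to 0.52) and cactin at -0.073 (-0.50 to 0.35). Of 45 splicing regulators and kinases 8 were tested, 5 higher and 3 lower with a median of 0.026, and the muscleblind genes mbnl3 and mbnl1, regulators of alternative splicing, both stood at -0.25 (-0.72 to 0.22 and -0.86 to 0.36).

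Exon junction, decay and assembly genes completed the lists. Of 31 exon junction and snRNP assembly genes 8 were tested, 3 higher and 5 lower with a median of -0.079. Their levels summed on the linear scale were 9.22 to 9.78 in controls and 8.64 to 9.18 with finasteride, without overlap. The sums of the other lists overlapped between groups. These sums were not tested, and no share over all probes stands beside them. The nonsense-mediated decay gene upf3a stood at -0.39 (-1.15 to 0.38), with finasteride 1 at -2.55 and the other 7 arrays between -1.56 and -0.75. Of 46 RNA decay and processing body genes 10 were tested, 6 higher and 4 lower with a median of 0.076, and the exosome subunit gene exosc3 stood at 0.31 (-0.19 to 0.80), the Argonaute gene ago3 at 0.17 (-0.22 to 0.56). The limma adjusted p was 1.00 for every gene of the 46 and of these lists.

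The remaining 9 of the 55 genes were not tested because their probes were not well above background on 3 arrays of either group. They were ddx42, ddx51, ddx54, ddx58, dhx9, lsm2, hnrnpa2b1, hnrnpab and rbm12b.3. Probes for ddx42, dhx9, lsm2, hnrnpa2b1 and rbm12b.3 were well above background on no array, and hnrnpa2b1 had 2 such probes. In vertebrates dhx9 and hnrnpa2b1 are known as broadly transcribed genes, and whether these probes read their transcripts was not tested.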

How the data were processed

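Spot intensity of 8 arrays was deposited by the authors as Agilent Feature Extraction 10.7.1.1 output on genome build JGI 4.1, per the file headers. The deposited intensity differed in scale between arrays. The authors' deposited table holds log2 values; the sources used here do not state their processing. Their median was 7.25 on every array and they followed the direction of intensity. On each array they correlated at 0.99987 to 0.99998 with the quantile-normalized log2 intensity used here. Results from that table and from quantile normalization are therefore not independent of each other. Feature Extraction's background step is likewise not given.

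From the files, log2 processed intensity was averaged over the spots of a probe, without control and outlier spots, and each array's 75th percentile was subtracted. A probe was tested if detected well above background in 3 or more of 4 arrays of a group (25652 of 32899) with limma 3.58.1 in R 4.3.3, two-sided, with a threshold of 0.05 on the Benjamini-Hochberg adjusted p. Accessions without version were matched to RefSeq genes of assembly UCB_Xtro_10.0, for names only (5891 probes matched), and each gene took the probe with the highest mean intensity. Of the 46 probes, 28 were named specific and 18 xhyb. Whether the latter read only their own gene was not tested. No value of the 46 genes was missing or imputed. Named genes were every piwil gene, the 2 of lowest p per family, non-overlapping genes, the 4 of widest range well above background on all arrays, and textbook core genes. The members, lists and rules were chosen with earlier results of these data known. Replicate numbers were not taken to pair samples in the main fit. Arrays of equal number had correlations of their deviations of 0.30, 0.36, -0.057 and -0.033, and those of unlike number ran from -0.43 to 0.23. Whether equal numbers pair samples is not settled by these values.

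In simulated arrays with the residual SD of the real probes (25596 probes), 2% of probes changed 1.5-fold and 35.2% of probes changed 2-fold were recovered. Of those changed 4-fold 88.4% were recovered, and of those changed 8-fold 94.8%. The simulation gave both groups the same spread and made arrays independent. In the real arrays the median SD of all probes was 0.23 in controls and 0.35 with finasteride, so these shares hold for the simulated setting only.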

Additional observations from a re-analysis of the deposited data

Results flagged for a closer look

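Of 92 groups of 4 values (46 genes in both groups), 1 held an array far from the other 3, where chance gives about 1 in 20 groups. It was ddx41, for which control 3 stood at -3.59 and the other controls between -3.95 and -3.94.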

How the results depend on the processing

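Members past the threshold numbered 0 under every alternative run: other backgrounds, normalizations, filters, slide, weights, probes and 1 array left out. Of the 46 genes, 0 or 1 had an unadjusted p under 0.05 in each refit over all probes (not counted for the choices of probe): ddx21 without control 4, dhx58 without finasteride 4, rbms3 without finasteride 2 and within slide 1, piwil1 with array weights and hnrnpul2 with the replicate number as a block. Over all probes 0 passed, but 1 within slide 2, and 0 to 7 with 1 array left out, the most without control 3. With the replicate block 0 probes and 0 members passed and no call changed. The members' median moved to 0.16 with normexp, where the median of all probes was 0.23, and ran from -0.0087 without finasteride 3 to 0.070 without control 4. It was 0.068 with quantile normalization and 0.080 from the authors' table, whose values are nearly the same. Leaving out 1 array turned the sign for 20 of all 46 genes, and the matching share of all probes is not given here.

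Of 19 named genes 11 kept their sign in all settings. With normexp the sign turned for dhx32 (0.13), dhx36 (0.21), dhx40 (0.19), rbm8a (0.49), sf3a1 (0.74) and sf3b3 (0.84), within slide 1 for dhx40 (0.14) and sf3a1 (0.016), within slide 2 for lsm8 (-0.016), rbm8a (0.073) and rbms3 (-0.11), and with array weights for dhx40 (0.058), rbm8a (0.017) and sf3b3 (0.13). With 1 array left out dhx40 ran from -0.32 to 0.16, lsm8 from -0.0045 to 0.19 and rbm8a from -0.15 to 0.074. Beyond the named genes normexp turned others of the 46 from lower to higher. Among them were dhx37 (0.94), lsm7 (0.85), rbm15 (0.15), ddx47 (0.056), ddx28 (0.047), hnrnpu (0.038) and prpf4b (0.022). Also turned were ddx20 (0.0084), ddx46 (0.0062) and hnrnpr (0.0036), whose levels lie above 0. The genes prpf38b, rbm12b.1, rbm12b.2, rbm20, rbm27 and rbm48 stayed lower. The 6 named genes turned by normexp all have levels below 0. With normexp the median difference of all probes of level 0 or below was 0.49, against 0.014 in the main fit. For all probes of level above 0 it was 0.0028 with normexp. The turns of the 6 named genes with normexp thus went the way of dim probes in general. The cause of the sign changes was not tested. Of the dim probes (ddx21, dhx37, dhx38, lsm7), those of ddx21, dhx38 and lsm7 had intervals reaching beyond a 2-fold change. That of dhx37 (-0.59 to 0.39) did not. The intervals of rbms3, sf3b3 and hnrnpul2 also reached beyond it, with probes well above background on all arrays. How far the number of arrays or dim probes limit the precision was not tested.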
